A study of Mus musculus with 10 samples.

Results

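The genes described here make cholesterol or control the SREBP transcription factors that switch that synthesis on. They were chosen by name from the deposited gene count matrix, with earlier results of these data known. They are 20 enzymes in pathway order, from acetyl-CoA to cholesterol, the sterol carrier Stard4, and 7 regulators. That gave 28 of the 56980 genes in the matrix. All 28 passed the filter on low counts. The series measured RNA by sequencing in mouse macrophages from JAML-WT mice or JAMLM-KO mice, with 5 libraries of each, and JAML is a junctional adhesion molecule-like protein. Sample titles spell the groups JAMLWT and JAMLMKO, and the genotype field of the second reads JAML Knockdown. Every library of both groups came from cells kept in DMEM with serum and exposed to lipopolysaccharide (LPS; 8 h, 100 ng/ml) before a short pulse of ATP (30 min, 5 mM), so the comparison is between genotypes in stimulated cells, and unstimulated cells were not analysed here. The labels name no Cre driver, strain, age or source tissue, and they do not say whether libraries came from separate animals, so p-values measure the spread between libraries. The count columns that do not carry the WT name were taken as the KO group by elimination. All directions below rest on that assignment, and the numbers KO 1 to KO 5 are column numbers that no label ties to a sample.

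Cells build cholesterol from acetyl-CoA through mevalonate, farnesyl diphosphate, squalene and lanosterol, and the branch at farnesyl diphosphate also feeds dolichol, ubiquinone and protein prenylation. SREBP proteins lie in the endoplasmic reticulum membrane with their escort SCAP. When sterol is plentiful the INSIG proteins hold that complex there, and when sterol is low SCAP carries SREBP to the Golgi, where site-1 and site-2 protease release the part that enters the nucleus. In macrophages this system is set against uptake of lipoprotein cholesterol, and LPS is known to alter it.

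Library totals ran from 19319512 to 22766319 counts, and levels are given as CPM, normalised counts scaled to a common library size, on which scale 3 counts correspond to 0.129 to 0.161. Libraries of a group differed from each other by more than counting noise, with a chi-square per gene of 9.93 to 19.7 within groups and 40.5 to 58.4 between them. KO 1 and KO 3 stood apart from the other KO libraries on the second principal component, which held 17.7% of the variance. Jaml itself could not check the labels, since it had no count in 8 of 10 libraries and at most 2 counts. Of 8 macrophage markers, 2 were called higher in KO and 2 lower, against 14.1% and 15% of all genes. Their sum, led by Lyz2 and Cd68, was 24026 to 25590 CPM in WT and 23045 to 25037 CPM in KO.

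Cholesterol synthesis genes were higher in KO macrophages along most of the pathway, each by a modest amount. Of the 28 genes, 18 rose and 1 fell at an adjusted p under 0.05 (edgeR quasi-likelihood test, Benjamini-Hochberg over all 14436 genes tested), and 9 were not called. Over all genes tested 14.1% were called higher and 15% lower. Since the members were chosen with earlier results known, these counts describe them and are not a test of the set. On the log2 scale the median difference was 0.27 for the 28 genes and 0.01 for the whole table. For 16 members every KO library lay above every WT library, and no member had every KO library below, against 10.9% and 12.4% of all genes (23.3% in either direction). With the libraries scaled to their totals alone, the median of all genes moved to 0.12 and that of the members to 0.38, the whole-table split changed from 2036 higher and 2164 lower to 4231 higher (29.3%) and 1361 lower (9.43%), and 22 members were called higher and 0 lower. Without KO 1 and KO 2, 13 members were called higher and 0 lower, against 11.2% and 12.8% of all genes, and without KO 1 and KO 3, 17 were higher and 0 lower, against 12.9% and 15.4%.

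Summed over the 20 enzymes, the level was 906 CPM ± 10.7 (SD, n = 5) in WT and 1127 CPM ± 24.9 (SD, n = 5) in KO, a ratio of 1.24. The WT sums ran from 892 to 917 CPM and the KO sums from 1083 to 1145 CPM, so the groups lay apart with a wide gap between them. Among the 18 genes that rose, folds ran from 1.12 for Ebp to 1.65 for Dhcr7, and 17 of them were between 1.1 and 1.4. Genes called higher anywhere in the table had a median of 0.35 on the log2 scale. In bulk RNA, a different share of expressing cells and a different amount of RNA per cell cannot be told apart. Markers of other cells also moved between the groups, where 14.1% of all genes were called higher and 15% lower. Neutrophil markers (2 of 2 tested higher) summed to 14.7 to 18.8 CPM in WT and 22.7 to 26.7 CPM in KO, led by S100a8 and Camp. Fibroblast and mesothelial markers (3 higher and 2 lower of 8) summed to 547 to 608 CPM in WT and 584 to 750.3 CPM in KO, led by Col1a1 and Col1a2, while mast cell markers (3 lower of 4 tested), led by Tpsb2 and Cma1, summed to 7.47 to 13.5 CPM in WT and 4.26 to 5.43 CPM in KO. Lymphocyte markers, led by Cd79b and Cd79a, summed to at most 1.02 CPM, and Cd3e was at 0 in all libraries. The part of these cells in the results was not tested.

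**Figure D1:**
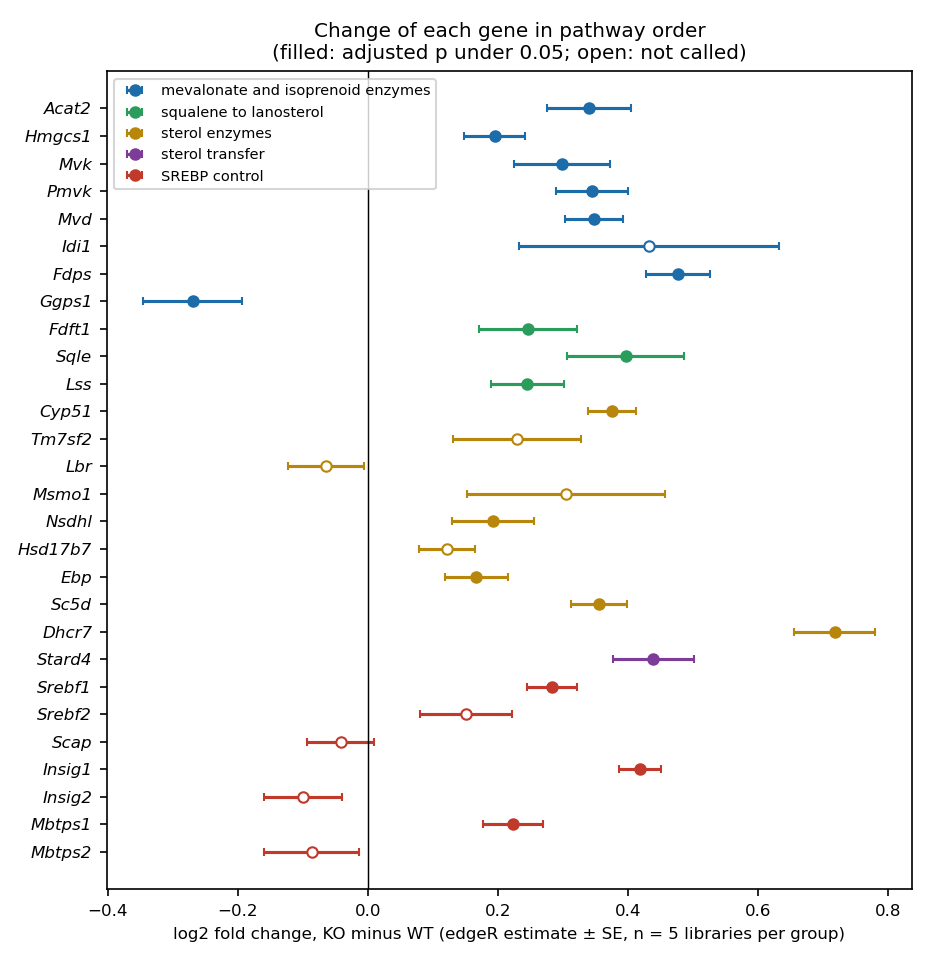
Log2 fold change of KO over WT for each of the 28 genes in pathway order (x axis; bars are the standard error of the edgeR estimate, 5 libraries a group), coloured by pathway step, with filled points for adjusted p under 0.05. Most points lie to the right of 0, Dhcr7 lies farthest right at 0.72, and Ggps1 at -0.27 is the filled point to the left.

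The mevalonate stretch opens with Acat2, the cytosolic thiolase that joins acetyl-CoA units, and Hmgcs1, which makes HMG-CoA. Of its 8 genes 6 rose, 1 fell and 1 was not called, against 14.1% higher and 15% lower over all genes. Their median log2 fold change was 0.34. Acat2 (ENSMUSG00000023832) stood at 37.7, 32.9, 35.3, 28.5 and 34.5 CPM in WT 1 to WT 5 and at 42.8, 41.7, 43.5, 42.9 and 42.9 CPM in KO 1 to KO 5. The KO libraries were tightly grouped and all above WT, with a log2 fold change of 0.34 ± 0.06 (SE) and an edgeR adjusted p of 0.00192. Its near-identical copy Acat3, with 52 to 73 counts in WT and 100 to 127 counts in KO, could share reads with Acat2, so the division between them is uncertain.

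Hmgcs1 (ENSMUSG00000093930) was at 89.2, 79.9, 79.9, 87.5 and 87.0 CPM in the WT libraries and at 102.7, 99.6, 93.7, 91.7 and 97.2 CPM in the KO libraries. The lowest KO library was just above the highest WT library, and the rise was small, at 0.19 ± 0.05 on the log2 scale (edgeR adjusted p = 0.00842). This gene is a textbook SREBP target. Without KO 1 and KO 2 together, its edgeR adjusted p was 0.0597.

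The middle kinases and decarboxylase moved by similar amounts. Mvk, mevalonate kinase, averaged 18.6 CPM ± 0.98 in WT and 22.8 CPM ± 2.33 in KO (SD, n = 5), a log2 fold change of 0.30 ± 0.07 with an edgeR adjusted p of 0.01. KO 4, at 18.8 CPM, lay within the WT range and the other KO libraries above it, and without KO 1 and KO 2 the adjusted p was 0.0752. Pmvk, phosphomevalonate kinase, rose from 11.6 CPM ± 0.582 to 14.8 CPM ± 0.634, and its KO libraries all lay above WT (log2 0.34 ± 0.06, edgeR adjusted p = 0.000622). Mvd, the decarboxylase that makes isopentenyl diphosphate, was at 93.1, 94.2, 101.5, 94.7 and 92.0 CPM in WT and at 116, 130.3, 115.5, 119.3 and 123.7 CPM in KO. Mvd groups lay well apart, with a log2 fold change of 0.35 ± 0.04 and an edgeR adjusted p of 0.000111.

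At the isoprenoid branch the genes went different ways. Fdps, which makes farnesyl diphosphate, had the largest rise of the mevalonate genes. Its libraries gave 69.8, 67.1, 65.6, 60.8 and 66.1 CPM in WT and 98.7, 90.3, 88.4, 86.2 and 94.6 CPM in KO. No KO library came near the WT range, and the log2 fold change was 0.48 ± 0.05 (fold 1.39, 95% interval 1.29 to 1.5; edgeR adjusted p = 2.07e-05). Ggps1, which extends farnesyl to geranylgeranyl diphosphate and so draws from the same pool, was the member that fell. It stood at 23.8, 22.6, 19.4, 21.3 and 26 CPM in WT and at 18.1, 17.9, 18.3, 19.7 and 20.1 CPM in KO, and WT 3 lay within the KO range while the other WT libraries lay above it. Ggps1 changed by -0.27 ± 0.08 on the log2 scale (edgeR adjusted p = 0.0196), and that call was lost without WT 1 (adjusted p = 0.0544), without WT 5 (0.0513), and with scaling by library totals (-0.15, 0.123). Ggps1 overlaps Arid4b, which had a value of -0.24 ± 0.09 (edgeR adjusted p = 0.0585), and with no strand setting given in the sources used here, reads of the overlap cannot be told apart.

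Idi1, the isomerase between isopentenyl and dimethylallyl diphosphate, was the most variable member in WT, with a coefficient of variation of 31.1%, and 16.1% in KO. It ran at 43.9, 29.7, 28.6, 42.4 and 19.6 CPM in WT and at 48.6, 45.2, 44.9, 50.6 and 32.3 CPM in KO. KO 5 fell inside the WT range and the other KO libraries were above it. Its log2 fold change of 0.43 ± 0.20 was as large as that of several called genes, but the edgeR adjusted p was 0.133 and the 95% interval ran from -0.00507 to 0.87. Counts of the copy Idi1-ps1, at 125 to 148 in WT and 141 to 171 in KO, may hold reads of Idi1.

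**Figure D2:**
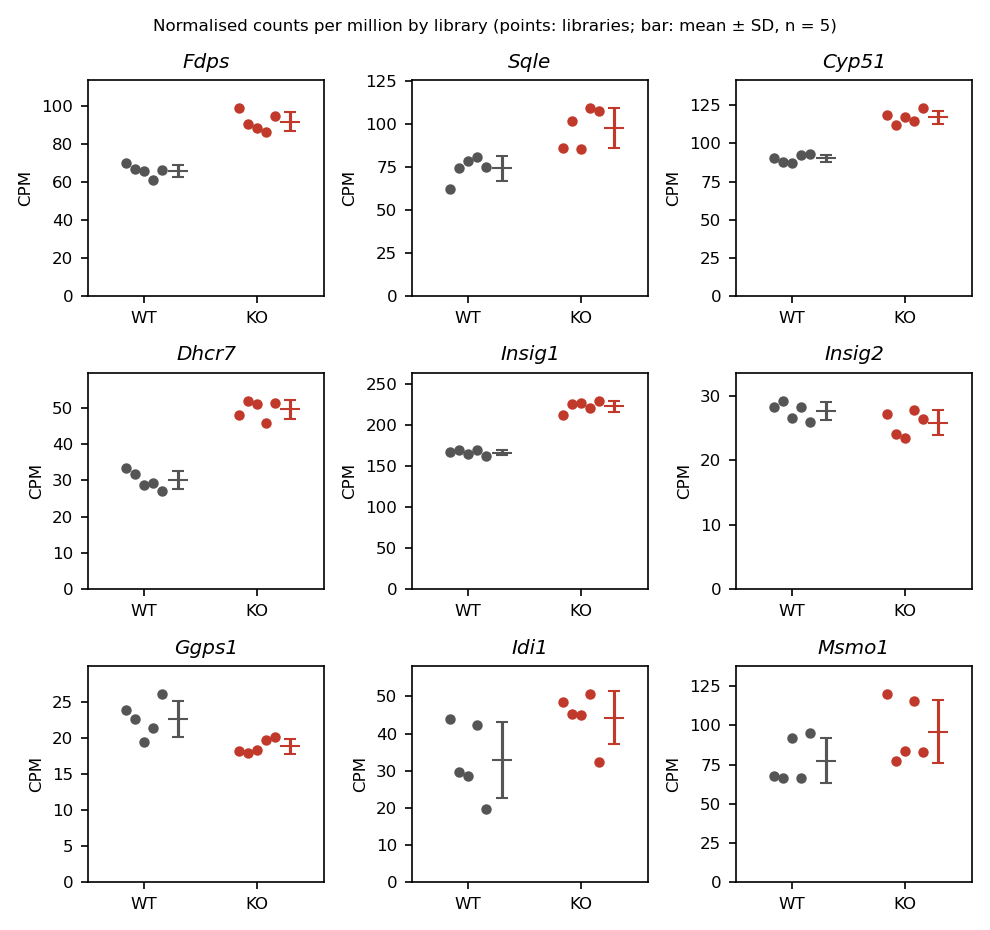
Normalised counts, in CPM (y axis, from 0) of 9 of the 28 genes in each of the 10 libraries; points are libraries and bars are mean ± SD, n = 5. Fdps, Cyp51, Dhcr7 and Insig1 show KO points wholly above WT, Ggps1 and Insig2 overlap, and Idi1 and Msmo1 are widely spread within both groups.

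All 3 genes from farnesyl diphosphate to lanosterol rose, against 14.1% of all genes, with log2 fold changes of 0.25 to 0.40. Sqle, squalene epoxidase, a rate-limiting oxygenase of the pathway, stood at 62.1, 74.5, 78.7, 81.1 and 75.1 CPM in WT and at 85.8, 101.5, 85.2, 109 and 107 CPM in KO. Every KO library was above WT, but KO 1 and KO 3 were nearer to it than the other 3, and the rise was 0.40 ± 0.09 (edgeR adjusted p = 0.00589). Lss, lanosterol synthase, went from 57.4 CPM ± 4.30 to 68.0 CPM ± 3.22 without overlap (log2 0.25 ± 0.06, edgeR adjusted p = 0.00638).

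Fdft1, squalene synthase, was at 40.0, 38.8, 42.3, 39.0 and 40.9 CPM in WT and at 46.8, 56.6, 40.5, 46.4 and 47.9 CPM in KO. KO 3 sat among the WT libraries and KO 2 far above the rest, so the rise of 0.25 ± 0.08 had an edgeR adjusted p of 0.0281, which became 0.0517 without KO 5 and 0.0936 without KO 1 and KO 2. Fdft1 overlaps Ctsb, a cathepsin gene with far more counts, which fell from 15275 to 13232 CPM (log2 -0.21 ± 0.04, edgeR adjusted p = 0.00136). The 2 genes thus moved in opposite directions, and reads in their overlap cannot be assigned here.

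Of the 9 genes that turn lanosterol into cholesterol, 5 rose, 0 fell and 4 were not called, against 14.1% higher and 15% lower over all genes. The first, Cyp51, the lanosterol demethylase, was at 90.5, 87.7, 87.2, 92.1 and 92.8 CPM in WT and at 118, 112, 117, 115 and 123 CPM in KO. The groups were far apart and each was tight, for a log2 fold change of 0.38 ± 0.04 (edgeR adjusted p = 1.48e-05). Akap9, which overlaps Cyp51, was not called (0.08 ± 0.07, edgeR adjusted p = 0.389). The promoter of Cyp51 is shown because it holds CCAAT, the NF-Y sequence commonly found beside SREBP sites, close to the start. In capitals is that motif within chr5:4104698-4104787 on the minus strand of GRCm38.p6, from the RefSeq promoter table, written in the direction of the gene.
Cyp51: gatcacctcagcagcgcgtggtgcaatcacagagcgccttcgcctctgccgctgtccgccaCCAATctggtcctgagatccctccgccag

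The next reduction can be done by Tm7sf2 or by Lbr, a nuclear envelope protein that carries the same sterol reductase activity. Tm7sf2 stood at 5.53, 5.62, 6.06, 6.96 and 6.52 CPM in WT and 7.33, 6.30, 8.41, 6.68 and 7.26 CPM in KO, with overlap and a value of 0.23 ± 0.10 (edgeR adjusted p = 0.108). Lbr was level, at 18.5 CPM ± 1.42 in WT and 17.7 CPM ± 0.559 in KO (log2 -0.06 ± 0.06, edgeR adjusted p = 0.465, 95% interval -0.19 to 0.06, and 0.052 with library totals). Within a library the ratio of Tm7sf2 to Lbr counts per kilobase was 0.335, 0.293, 0.375, 0.393 and 0.402 in WT and 0.444, 0.393, 0.487, 0.417 and 0.449 in KO. KO 2 overlapped WT and the other KO libraries were above, and the log2 difference was 0.29 (exact permutation test, two-sided, p = 0.0238, and 0.0357 adjusted over 3 ratios). That call was lost when any of 7 single libraries was left out (adjusted p up to 0.0714). Vps51, which overlaps Tm7sf2 and has more counts, fell by 0.19 on the log2 scale, so Tm7sf2 values may hold reads of both.

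Msmo1, the sterol C4-methyl oxidase, was spread widely, at 67.8, 66.8, 91.7, 66.8 and 94.9 CPM in WT and 119.9, 77.6, 83.5, 115.3 and 83.1 CPM in KO. KO 1 and KO 4 lay above all WT libraries and the other 3 within the WT range, with a value of 0.30 ± 0.15 (edgeR adjusted p = 0.164). Its partners in C4 demethylation were Nsdhl and Hsd17b7. Nsdhl averaged 26.1 CPM ± 2.12 in WT and 29.8 CPM ± 1.63 in KO, with KO 3 inside the WT range, and rose by 0.19 ± 0.06 (edgeR adjusted p = 0.0386), a call lost in 7 of 10 fits that left out a single library. Hsd17b7 went from 28.6 CPM ± 1.01 to 31.2 CPM ± 0.993 with all KO libraries above WT, yet at 0.12 ± 0.04 it missed the threshold (edgeR adjusted p = 0.0517).

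The end of the pathway held the largest change. Ebp, the sterol isomerase, rose only slightly, from 35.4 CPM ± 1.75 to 39.8 CPM ± 1.8 (log2 0.17 ± 0.05, edgeR adjusted p = 0.0226), and lost the call without KO 2 or without KO 5. Sc5d, the desaturase that makes the direct precursor for Dhcr7, was at 57.4, 60.3, 53.1, 55.9 and 54.9 CPM in WT and at 71.3, 74.0, 69.9, 69.5 and 75.6 CPM in KO. Sc5d groups lay apart, for a log2 fold change of 0.36 ± 0.04 (edgeR adjusted p = 7.93e-05).

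Dhcr7, which reduces dehydrocholesterol to cholesterol, had the largest fold of all 28 genes. Its libraries were at 33.5, 31.8, 28.8, 29.4 and 27.1 CPM in WT and at 48.1, 51.8, 51.1, 45.7 and 51.2 CPM in KO. Each KO library was well above each WT library, and the fold was 1.65 (95% interval 1.5 to 1.81; log2 0.72 ± 0.06; edgeR adjusted p = 5.35e-06). Dhcr7 (ENSMUSG00000058454) lies on chromosome 7 at 143376882 to 143402147 in the deposited table, and the processing notes name both mm10 and GRCm39. The stretch before 1 of the 3 listed starts of Dhcr7 is shown because it carries CCAAT in both directions, in capitals, at chr7:143830081-143830180 on the plus strand of GRCm38.p6 in the RefSeq promoter table. That position lies outside the deposited span, so the deposited positions are not on GRCm38 (mm10).
Dhcr7: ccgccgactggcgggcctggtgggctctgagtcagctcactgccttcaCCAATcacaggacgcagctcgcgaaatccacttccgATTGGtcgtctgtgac

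**Figure D3:**
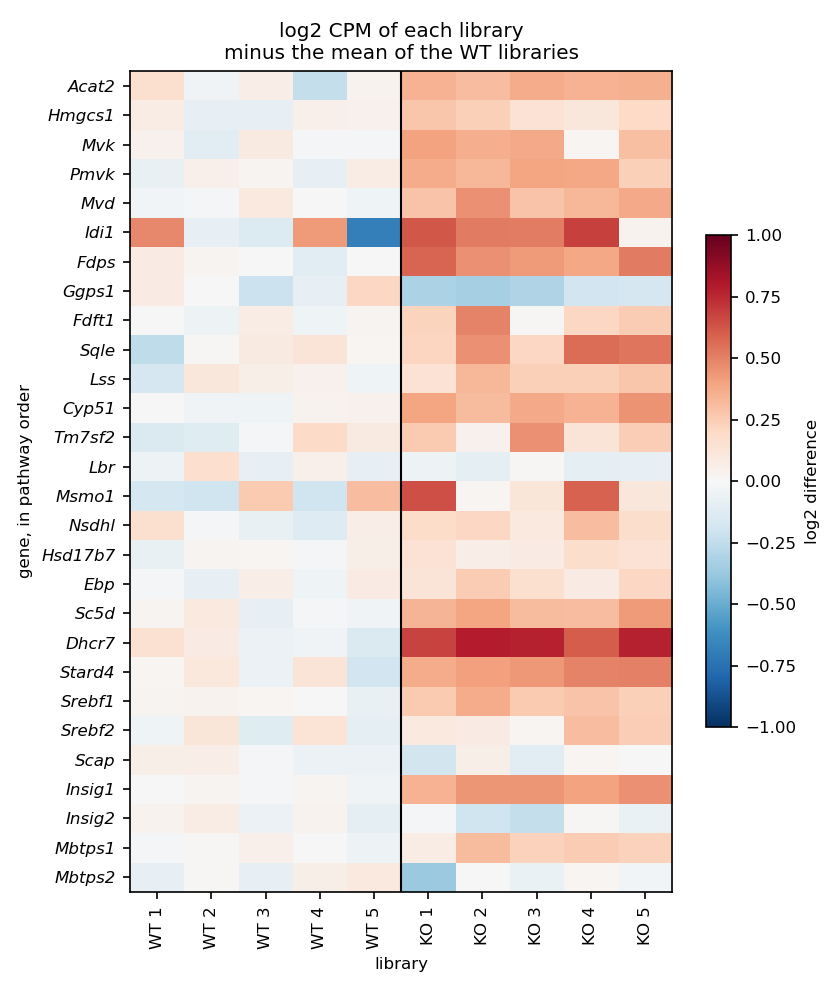
Log2 CPM of each of the 28 genes (rows, pathway order) in each library (columns) minus the mean of the WT libraries; red is higher and blue lower, on a scale from -1 to 1. The KO columns are mostly red from Acat2 to Fdps and again from Sqle to Cyp51 and from Sc5d to Srebf1, blue at Ggps1, and Idi1 and Msmo1 vary within both groups.

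Stard4, a soluble carrier that moves sterol between membranes and is itself sterol-regulated, rose together with the enzymes. It stood at 34.1, 36.1, 32.3, 36.7 and 29.4 CPM in WT and at 43.4, 44.5, 45.5, 47.5 and 47.6 CPM in KO. All KO libraries were above WT, with a log2 fold change of 0.44 ± 0.06 (edgeR adjusted p = 0.000232).

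Among the 7 regulators 3 rose, 0 fell and 4 were not called, against 14.1% higher and 15% lower over all genes. The 3 that rose had every KO library above WT, against 10.9% of all genes. Insig1, which retains SCAP in the endoplasmic reticulum and is a direct SREBP target, had the smallest p of all members. It was at 167, 169, 165, 169 and 162 CPM in WT and at 212, 226, 226, 220.2 and 229 CPM in KO. Both groups were tight, with a coefficient of variation of 1.85% in WT and 3.04% in KO, and the log2 fold change was 0.42 ± 0.03 (fold 1.34, 95% interval 1.27 to 1.41; edgeR adjusted p = 2.67e-06). Insig2, its paralog, was not called, at 27.7 CPM ± 1.34 in WT and 25.8 CPM ± 1.93 in KO (log2 -0.10 ± 0.06, edgeR adjusted p = 0.247, 95% interval -0.23 to 0.03, and 0.015 with library totals).

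The difference between the paralogs was tested within libraries, where scaling plays no part. The ratio of Insig1 to Insig2 counts per kilobase was 6.62, 6.52, 6.96, 6.71 and 7.02 in WT and 8.74, 10.5, 10.8, 8.88 and 9.71 in KO. No ratio overlapped, and the geometric mean went from 6.76 to 9.70. The log2 difference was 0.52 (two-sided p = 0.00794 by exact permutation, which is the floor for 5 against 5, and 0.0238 adjusted over 3 ratios).

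Of the SREBP genes themselves, Srebf1 was called higher and Srebf2 was not called. Srebf1, which encodes SREBP-1 and is associated mainly with fatty acid synthesis, was at 59.9, 60.2, 59.6, 58.6 and 55.8 CPM in WT and at 70.5, 76.0, 70.5, 71.6 and 69.5 CPM in KO. The groups lay apart, and the log2 fold change was 0.28 ± 0.04 (edgeR adjusted p = 0.00017). Gene counts do not separate its a and c isoforms, and Rai1, which overlaps it, was not called (-0.01 ± 0.11). Srebf2, which encodes SREBP-2, the main driver of cholesterol synthesis genes, was at 183, 206, 174, 208 and 177 CPM in WT and at 202, 199.8, 191, 235 and 225 CPM in KO. KO 4 and KO 5 exceeded all WT libraries and the other 3 overlapped them, so its value of 0.15 ± 0.07 was not called (edgeR adjusted p = 0.138, 95% interval -0.00378 to 0.31). The ratio of Srebf1 to Srebf2 counts per kilobase was 0.396 in WT and 0.434 in KO (geometric means), a log2 difference of 0.13 that was not called (exact permutation p = 0.151, also after adjustment over the 3 ratios).

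**Figure D4:**
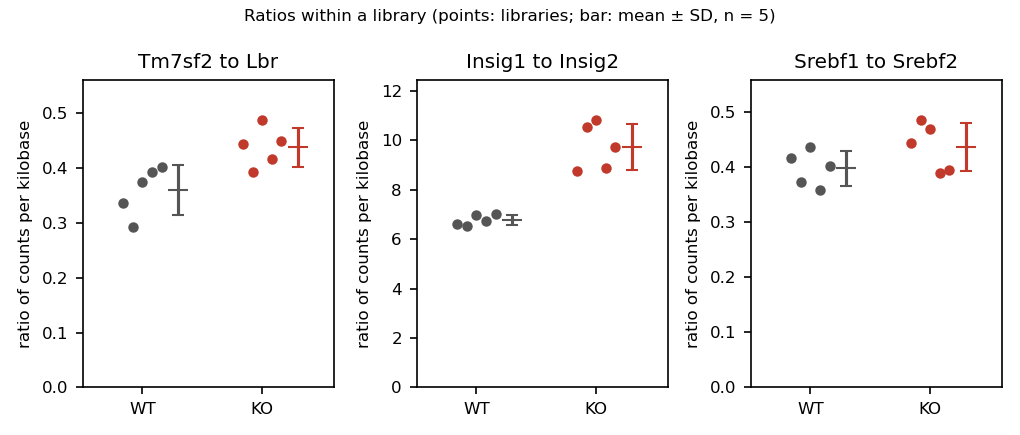
Ratio of counts per kilobase between the members of 3 gene pairs in each library (y axis from 0; points are libraries, bars mean ± SD, n = 5). The Insig1 to Insig2 ratio is 6.52 to 7.02 in WT and 8.74 to 10.8 in KO, while the other ratios overlap between groups.

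Scap, the escort, averaged 78.7 CPM ± 3.37 in WT and 76.4 CPM ± 5.14 in KO and was not called (log2 -0.04 ± 0.05, edgeR adjusted p = 0.601, and 0.072 with library totals). Mbtps1, which encodes site-1 protease, was at 75.3, 76.6, 79.0, 76.3 and 73.6 CPM in WT and at 80.1, 95, 89.2, 91.0 and 89.3 CPM in KO. KO 1 was only just above WT and the other 4 well above, with a log2 fold change of 0.22 ± 0.05 (edgeR adjusted p = 0.0034). Mbtps2, which encodes site-2 protease, averaged 45.8 CPM ± 2.50 in WT against 43.2 CPM ± 4.46 in KO and was not called, at -0.09 ± 0.07 (edgeR adjusted p = 0.422, and 0.028 with library totals), with KO 1 lowest at 35.4 CPM.

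Sterol-response letters near the start were searched in the RefSeq promoter table of GRCm38.p6 for 24 of the 28 genes, over 250 bases before each of 32 listed starts, on both strands. The first letters, TCACNCCA, follow the sterol regulatory element that SREBP binds. They were present in Hmgcs1, Msmo1 and Srebf2, that is in 3 of 24 genes, against 4.20% of all 27025 genes and 3.67% of all 32851 promoters in the table. Of those, Hmgcs1 was called higher and Msmo1 and Srebf2 were not. The stretches below are shown because they are the members with these letters, in capitals, and they lie at chr13:119690173-119690262 (plus strand), chr15:82147066-82147155 (plus) and chr8:64733707-64733796 (minus).
Hmgcs1: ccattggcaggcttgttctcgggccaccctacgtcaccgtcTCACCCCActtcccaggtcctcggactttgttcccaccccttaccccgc
Srebf2: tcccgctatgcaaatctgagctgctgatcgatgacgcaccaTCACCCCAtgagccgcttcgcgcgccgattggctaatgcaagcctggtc
Msmo1: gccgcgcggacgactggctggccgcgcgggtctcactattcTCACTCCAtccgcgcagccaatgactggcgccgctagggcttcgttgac

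A longer form of the E-box, TCACGTGG, which SREBP also binds, was present in Insig1, Hsd17b7 and Sc5d, again 3 of 24 genes, against 1.43% of all genes and 1.23% of promoters. The E-box core CACGTG, which lies within it, was present in 5 of 24 genes, against 6.86% of all genes. Of the 3 genes with the longer form, Insig1 and Sc5d were called higher and Hsd17b7 missed the threshold. All 3 had every KO library above WT, as did 16 of the 28 members and 10.9% of all genes. Among the 21 searched members without the longer form, 12 were called higher. A link between these letters and the rise was not tested. In Sc5d the letters read in the reverse direction, as CCACGTGA. The stretches, with these letters in capitals, lie at chr5:28071269-28071358 (plus), chr1:169969301-169969390 (minus) and chr9:42264351-42264440 (minus).
Insig1: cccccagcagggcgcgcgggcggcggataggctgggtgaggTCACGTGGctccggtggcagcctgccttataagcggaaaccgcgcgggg
Hsd17b7: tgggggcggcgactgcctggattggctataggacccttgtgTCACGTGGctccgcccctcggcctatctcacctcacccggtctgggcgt
Sc5d: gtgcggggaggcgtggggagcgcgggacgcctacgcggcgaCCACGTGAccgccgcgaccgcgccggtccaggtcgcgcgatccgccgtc

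CCAAT, the NF-Y letters, occurred in 20 of 24 genes against 37.5% of all genes, and GGGCGG, the Sp1 letters, in 21 of 24 against 35.4%. Both were common among called and uncalled members alike: 12 of the 20 genes with CCAAT and 13 of the 21 with GGGCGG were called higher. A match describes these windows alone and does not show binding.

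Levels were compared between genes per kilobase of exon. The length was the union of all annotated exons, such as 1859 bases for Mvd and 10787 for Lss. The order of genes therefore also depends on which exons are annotated. Insig1 was highest in both groups, at 53.8 CPM per kilobase in WT and 72.0 in KO, followed by Mvd at 51.2 and 65.1 and Srebf2 at 26.4 and 29.3. Cyp51, at 20.4 and 26.5, came next, and then Hmgcs1 at 18.4 and 21.1 and Fdps at 15.7 and 21.8. The lowest were Lbr, at 3.90 and 3.72, and Tm7sf2, at 1.39 and 1.63. Dhcr7 moved from rank 24 of 28 in WT, at 5.18 ± 0.431, to rank 19 in KO, at 8.52 ± 0.450 (SD, n = 5). Some neighbours in the order, such as Sqle and Acat2 in WT at 13.4 ± 1.32 and 13.3 ± 1.34, did not differ beyond their spread. Others did, such as Lbr and Tm7sf2 in WT at 3.90 ± 0.297 and 1.39 ± 0.138.

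**Figure D5:**
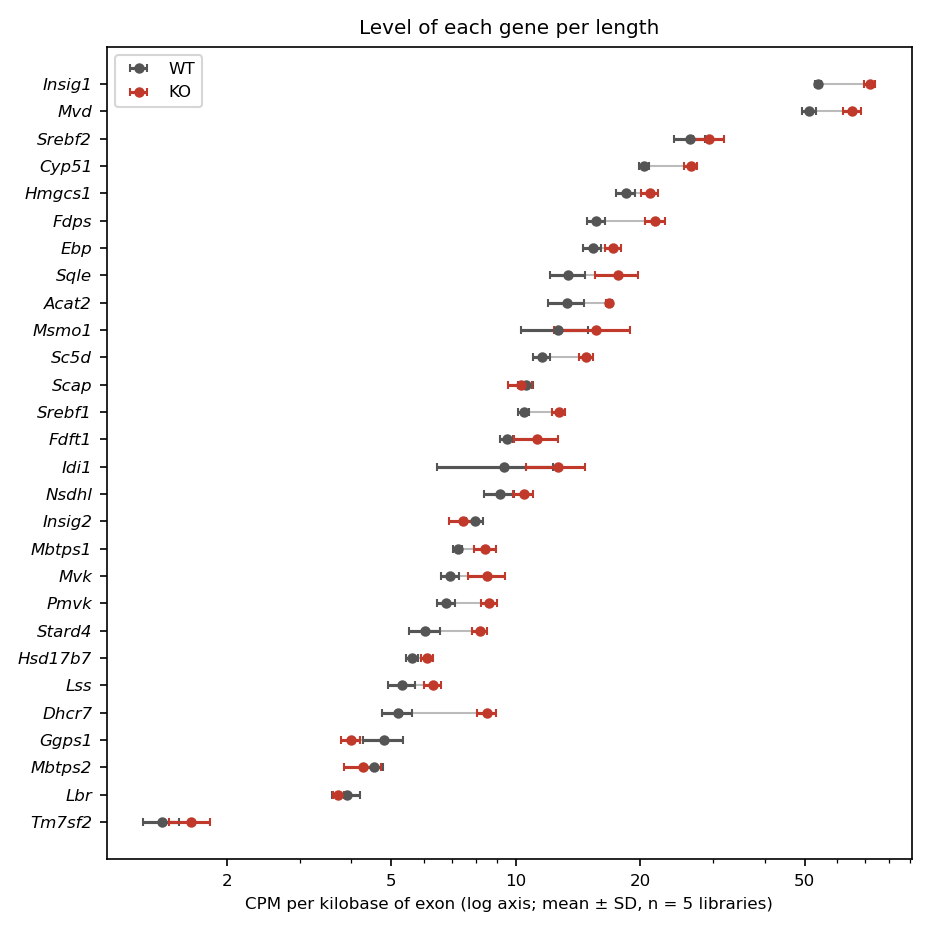
Level of each of the 28 genes per kilobase of exon (x axis, log scale; mean ± SD, n = 5 libraries) in WT and KO, ordered by the WT level. Insig1 and Mvd stand highest in both groups, Tm7sf2 lowest, and Dhcr7 shows the widest gap between the groups.

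Other genes of lipid and isoprenoid metabolism were taken from lists set beside the members. Fatty acid synthesis, which SREBP-1 also drives, had 6 genes that rose and 1 that fell out of 12 tested (median log2 value 0.35), against 14.1% and 15% of all genes. Fads1, a fatty acid desaturase, rose by 0.49 ± 0.05, Acaca, which makes malonyl-CoA, by 0.50 ± 0.07, and Elovl5, an elongase, by 0.42 ± 0.07 (edgeR adjusted p = 1.94e-05, 0.000153 and 0.000514). The gene that fell was Acss2, at -0.26 ± 0.07 (edgeR adjusted p = 0.0156). Of 17 isoprenoid-using genes 2 rose and 0 fell, with a median of 0.04, so no more rose than the 14.1% of all genes would give. They were Dhdds, a dolichol synthesis subunit, up by 0.33 ± 0.06, and Fnta, a prenyltransferase subunit, up by 0.30 ± 0.06.

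Genes that move, store or break down sterol included some that rose and some that fell. Of 12 tested for transport and storage, 1 rose and 4 fell, with a median of -0.01, beside 14.1% higher and 15% lower over all genes. Tmem97, a sterol-responsive membrane protein that binds NPC1, rose by 0.47 ± 0.04, while Stard3, a late endosomal sterol carrier, changed by -0.80 ± 0.06 and Lipa, the lysosomal acid lipase, by -0.38 ± 0.03 (edgeR adjusted p = 2.94e-06, 1.91e-06 and 6.57e-06). Of 9 genes for sterol-regulated protein degradation, 0 rose and 2 fell, which is close to the 15% of all genes called lower: Rnf145, a ubiquitin ligase, by 0.52 and Aup1 by 0.17 on the log2 scale, the second of which was not called with library totals (adjusted p = 0.293).

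Oxysterol synthesis gave the largest change in these lists. Ch25h, which makes the oxysterol 25-hydroxycholesterol that keeps SREBP in the endoplasmic reticulum and is induced by LPS in macrophages, fell. It was at 23.6, 24.1, 29.1, 27.3 and 27.7 CPM in WT and at 9.91, 9.54, 9.04, 10.8 and 7.41 CPM in KO. No KO library reached a level near WT, and the log2 fold change was -1.49 ± 0.10 (edgeR adjusted p = 7.58e-07). Of the 5 oxysterol genes tested it was the single one called. Over the 55 related genes tested, 9 rose and 8 fell, and with library totals 20 were called higher and 5 lower. These shares are close to those of all genes, 14.1% and 15%, and 29.3% and 9.43% with library totals, so the related genes as a whole were called about as often as any.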

How the data were processed

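The authors deposited a gene table holding read counts and FPKM values for 10 RNA libraries, 5 WT and 5 KO, and counts were the input here. Tools named in the submitters' processing notes are TopHat2 2.0.6 and CASAVA 1.8, and builds named there are mm10 and GRCm39. For the counter, annotation and strand setting, nothing is given in the sources used here. The authors' deposited FPKM values served only to check gene lengths: the lengths they imply exceeded the gene span for 2 members, so levels per kilobase used exon unions from GENCODE M21 (GRCm38). The FPKM values of the KO group, in 5 columns, were not used.

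Genes were kept with filterByExpr (minimum count 10), scaled by TMM and tested across all 10 libraries with edgeR 4.0.16 (limma 3.58.1, R 4.3.3), with calls made under an adjusted p of 0.05. Each SE is the log2 fold change divided by the root of F. The script was tested on simulated data. DESeq2 1.42.0, limma-voom, other scaling and filters, a replicate block and left-out libraries were alternatives.

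Ratios used a two-sided exact permutation test with no pseudocount, and a pseudocount of 1 was an alternative. Named genes were every member, up to 3 called genes with the smallest p from each related list, and the 2 most abundant of each marker list. Acss2 was named besides, as the called gene of its list that fell. The members and lists were chosen with earlier results of these data known.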

Additional observations from a re-analysis of the deposited data

Results flagged for a closer look

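In 3 of 62 groups of 5 libraries examined, 1 library stood far from the other 4, and chance alone gives about 1 in 20. Mvk in KO 4 was at 18.8 CPM, against 22.9 to 24.5 CPM in the other KO libraries. Mvd in WT 3 was at 101.5 CPM, against 92.0 to 94.7 CPM in the other WT libraries. Mbtps2 in KO 1 was at 35.39 CPM, against 43.6 to 46.3 CPM in the other KO libraries.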

How the results depend on the processing

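13 members (Acat2, Pmvk, Mvd, Fdps, Sqle, Lss, Cyp51, Sc5d, Dhcr7, Stard4, Srebf1, Insig1 and Mbtps1) were called in all 19 alternatives, and the 18 genes that rose had a positive value in each. How many of all genes kept a call in every alternative was not counted. Library totals gave 4231 genes higher and 1361 lower, 0 members and 0 mevalonate genes lower, 8 sterol genes higher, and 20 related genes higher and 5 lower. Under that scaling Lbr turned to 0.052, Scap to 0.072, Insig2 to 0.015 and Mbtps2 to 0.028. Without a low-count filter 0 members and 0 mevalonate genes were lower. Leaving out a pair of libraries was chosen after seeing the data. Without KO 1 and KO 2, 13 members were higher and 0 lower, with 0 mevalonate genes lower and 3 sterol genes higher. Without KO 1 and KO 3, 17 were higher and 0 lower, with 0 mevalonate genes lower, and Scap turned to 0.022. Leaving out each library in turn gave 15 to 19 members higher and 0 to 1 lower (0 without WT 1 or WT 5), 0 to 1 mevalonate genes lower, and 3 to 6 sterol genes higher (3 without KO 5). Over all genes those fits gave 1789 to 2067 higher and 1854 to 2105 lower, of 14560 to 14625 tested. The Tm7sf2 to Lbr difference was 0.22 to 0.33 in those fits, 0.33 without KO 1 and KO 2 (adjusted p = 0.0536, exact permutation) and 0.23 without KO 1 and KO 3 (0.161). The Insig1 to Insig2 difference was 0.53 (0.0536) and 0.52 (0.107) in these, where fewer libraries limit the smallest p. With a replicate block, 17 members were higher and 1 lower, Idi1 gained a call (0.47, edgeR adjusted p = 0.0099), Fdft1 (0.0687) and Nsdhl (0.0732) lost theirs, and the ratio differences were 0.29 and 0.52 (exact adjusted p = 0.0938 each; 5 pairs cannot give an exact p below 0.0625, so no ratio could pass and this fit says nothing about those calls). Over all genes the replicate block gave fewer calls, both higher and lower, than the 14.1% and 15% called without it. Same-numbered libraries did not deviate together (correlations of -0.11 to 0.18; the same number was the best partner for 2 of 5), so the numbers give no pairing. The cause of these changes was not tested.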

Other observations

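The stearoyl-CoA desaturase genes Scd1 and Scd2, chosen after their values were seen, were widely spread within the groups. Scd2 stood at 96.7, 36.7, 89.5, 97.7 and 86.0 CPM in WT and at 264, 249.6, 108, 85.2 and 95.9 CPM in KO, so KO 1 and KO 2 were far above all other libraries and the rest of KO was near WT. Scd1 was at 22.4, 31.3, 17.6, 19.5 and 16.2 CPM in WT and at 55.6, 52.4, 37.6, 15.3 and 15.6 CPM in KO, again highest in KO 1 and KO 2. Neither was called (edgeR adjusted p = 0.0658 for Scd2 and 0.164 for Scd1). Insig1, by comparison, was lowest among KO libraries in KO 1, at 212 CPM. In KO 2 it was at 226 CPM, within the range of KO 3 to KO 5.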
